A study of Homo sapiens with 3 samples.

Results

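The sites described here are the CRY1 binding sites with a summit near a gene but away from its promoter. The rule looks at the summit alone, so a wide peak can still cover a TSS. A site was taken when the summit of its peak, the base with the highest read pileup, lay more than 1 kb and at most 10 kb from the nearest transcription start site (TSS) among all GENCODE transcripts on hg19. This rule gave 536 of the 2549 summits on chromosomes 1 to 22 and X (21.0%, Wilson 95% interval 19.5 to 22.7%). Of the remaining summits, 1650 (64.7%) lay within 1 kb of a TSS and 363 (14.2%) lay over 10 kb away.

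The peaks came from chromatin immunoprecipitation followed by sequencing (ChIP-seq) of CRY1 in C4-2, an established human prostate cancer cell line that grows in castrate conditions. The cells were labelled Veh, which the study's text gives as vehicle treated, and were kept in hormone-proficient medium for 24 h before harvest. The authors sequenced 2 CRY1 immunoprecipitates and 1 input library, and called 1 peak list on the immunoprecipitates combined. No peak therefore carries a replicate error, the sequencing depth is unknown from the list, and the intervals and p-values below cover the counting of summits within this list.

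CRY1 is a transcriptional repressor of the circadian clock. The clock activators CLOCK and BMAL1 bind the E-box, the palindrome CACGTG, and switch on the PER and CRY genes, whose products then act on CLOCK and BMAL1 to shut the loop. Sites 1 to 10 kb from a TSS are often in the first intron or in the sequence just upstream of a gene, where regulatory elements other than the promoter are found.

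The sequences at the summits of some strong sites are given here. They were chosen by whether they held an E-box, so they do not show how common it is. The 6 sites with the highest −log10 q that held an E-box are printed first, because 286 of the 536 sites held that motif, and the 3 strongest sites without one follow for contrast. Windows that touch an annotated UTR were left out of this choice. Each line gives the summit with 50 bases on each side, on the plus strand of GRCh37 (hg19), and capitals mark CACGTG. The windows are chr12:26267379-26267479 near SSPN, chr17:38255358-38255458 in NR1D1, chr6:31171359-31171459 in HCG27, chr17:80246035-80246135 near LINC01970, chrX:114959983-114960083 in DANT1, chr9:92499668-92499768 near ENSG00000226206, chr19:45310529-45310629 near BCAM, chr17:49195905-49196005 in SPAG9 and chr6:7561791-7561891 in DSP.
SSPN: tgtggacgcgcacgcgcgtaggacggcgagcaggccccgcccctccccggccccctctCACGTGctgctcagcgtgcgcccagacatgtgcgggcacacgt
NR1D1: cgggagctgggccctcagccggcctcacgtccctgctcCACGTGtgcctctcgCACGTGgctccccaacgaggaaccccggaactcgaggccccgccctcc
HCG27: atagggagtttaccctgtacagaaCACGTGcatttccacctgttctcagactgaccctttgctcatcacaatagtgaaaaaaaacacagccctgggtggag
LINC01970: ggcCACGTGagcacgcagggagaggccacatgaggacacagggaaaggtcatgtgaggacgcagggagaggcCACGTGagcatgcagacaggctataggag
DANT1: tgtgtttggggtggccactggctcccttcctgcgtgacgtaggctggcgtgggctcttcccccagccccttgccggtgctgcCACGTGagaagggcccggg
ENSG00000226206: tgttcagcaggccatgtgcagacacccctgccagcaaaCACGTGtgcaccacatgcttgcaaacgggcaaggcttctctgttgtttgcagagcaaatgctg
BCAM: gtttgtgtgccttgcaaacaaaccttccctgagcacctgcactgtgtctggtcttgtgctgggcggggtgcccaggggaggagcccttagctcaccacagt
SPAG9: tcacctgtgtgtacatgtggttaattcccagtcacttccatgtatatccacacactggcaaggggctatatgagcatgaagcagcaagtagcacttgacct
DSP: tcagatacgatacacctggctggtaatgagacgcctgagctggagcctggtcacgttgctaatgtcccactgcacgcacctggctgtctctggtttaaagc
NR1D1 and LINC01970 each held 2 copies of the E-box. The window in SPAG9 held the related sequence CATGTG and that in DSP held the E′-box CACGTT, while the window near BCAM held neither.

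The strength of a site is given by the authors' fold enrichment, the pileup at the summit divided by the local background, and by −log10 q. Over the 536 sites the median fold enrichment was 5.13 (quartiles 4.33 and 6.51, range 2.60 to 23.2), and the median width of a peak was 177 bp. The strongest site lay 7495 bp upstream of a TSS of SSPN, which encodes sarcospan, a membrane protein of the dystrophin complex (chr12:26265961-26268573). Its fold enrichment was 23.2 at a −log10 q of 82.4, and its E-box centre lay 10.5 bp from the summit. The next by −log10 q had its summit 1434 bp downstream of a TSS of NR1D1, the gene of the clock repressor REV-ERBα, in a first intron (chr17:38254757-38257403). Its fold enrichment was 17.8 (−log10 q 77.8). The peak was wide enough to cover that TSS, at 38256842, yet the site counts below as one without a promoter peak.

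The other sites among the 10 strongest by −log10 q were less uniform in the genes beside them. A site in an exon of HCG27, a non-coding gene of the HLA region, had a fold enrichment of 17.9 (chr6:31171092-31171913, 1619 bp downstream). A site outside genes, 4605 bp downstream of a TSS of the long non-coding RNA gene LINC01970, reached 18.2 (chr17:80245647-80246693). The non-coding genes ENSG00000226206 (13.4, chr9:92499406-92500209, 1424 bp upstream) and ENSG00000286538 (15.2, chr19:30334859-30336009, 2645 bp upstream) also had a site in this group. A first-intron site of ARHGAP26, which encodes a GTPase-activating protein, reached 16.0 (chr5:142520424-142521232, 7184 bp downstream). The site 1749 bp upstream of BCAM, the gene of a laminin-binding adhesion molecule, reached 16.1 (chr19:45310057-45311585), and it was the only 1 of the 10 without an E-box.

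DANT1, a long non-coding RNA gene at the DXZ4 tandem repeat of chromosome X, took the 2 remaining places among the 10 strongest, with fold enrichments of 14.7 (chrX:114959707-114960671) and 14.3 (chrX:114962565-114963711). It was the nearest gene of 8 sites, more than any other gene. Of these 8 sites, 3 had a fold enrichment from 12.9 to 14.7 and held an E-box, and the other 5 ranged from 2.91 to 6.16 and held none. Reads from tandem repeats cannot be placed with certainty, so the position of these sites is less sure than elsewhere. Without DANT1, 283 of 528 sites (53.6%) held an E-box.

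Sites between 1 and 10 kb of a TSS were fewer than the sequence they occupy. Of all genome bases outside runs of unknown bases on these chromosomes, 34.8% lay at this distance, so the 21.0% of summits there amounted to 0.605 times the share of bases. The same ratio was 8.61 within 1 kb of a TSS and 0.247 beyond 10 kb. Within the band, sites were crowded towards the TSS. Between 1 and 2 kb there were 136 sites (25.4%, against 16.9% of the bases in the band, a ratio of 1.51), and between 2 and 3 kb there were 93 (17.4% against 14.6%). Between 8 and 10 kb there were 69 (12.9% against 15.4%). The median distance was 3732.5 bp.

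**Figure D1:**
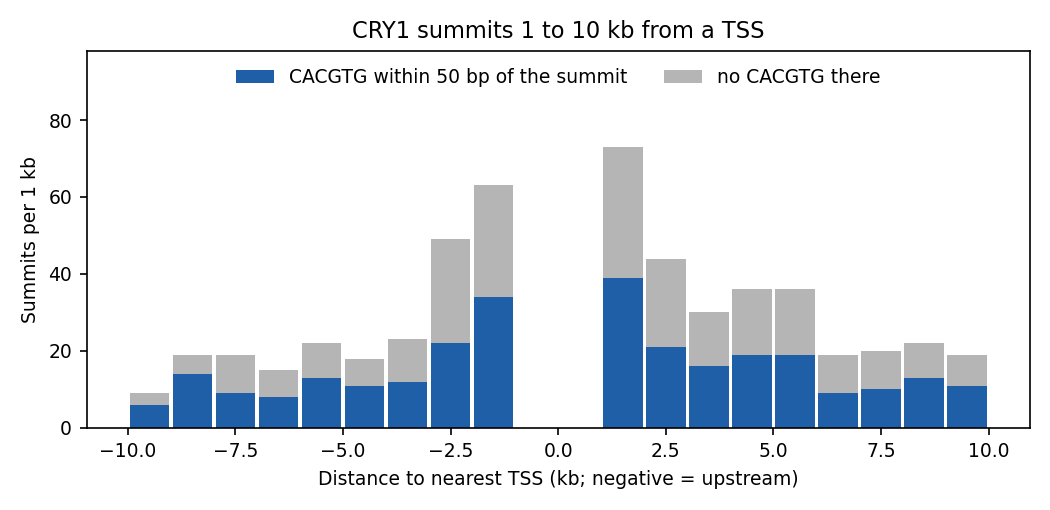
Number of CRY1 summits per 1 kb of distance to the nearest TSS (x axis in kb, negative values upstream), with blue for summits with CACGTG within 50 bp and grey for the others. The bars are highest between 1 and 2 kb on both sides, where 136 of the 536 summits lie, and blue and grey are of similar size at most distances.

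The values on either side of the edges of the band are given as a description. Summits just inside the lower edge, 1 to 2 kb from a TSS, had a median fold enrichment of 5.19 and held an E-box in 53.7% of cases, whereas the 195 summits 500 to 1000 bp from a TSS had 5.06 and 50.8%. Just inside the upper edge, 8 to 10 kb away, the values were 4.85 and 63.8% over 69 sites, and the 48 summits 10 to 12 kb away had 4.85 and 50%. The E-box share in the 7 distance bins of the band ranged from 46.2% to 63.8%.

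The E-box was the feature these sites shared most often. CACGTG lay within 50 bp of 286 of the 536 summits (53.4%, interval 49.1 to 57.5%), against 9 windows (1.68%) of the same size centred 1000 bp to the left and 11 (2.05%) centred 1000 bp to the right. The excess was tested with an exact McNemar test on each side over 8 motifs (adjusted p = 7.03e-77 and 3.05e-77, two-sided, Benjamini-Hochberg over 16 tests). The E-box centre lay a median of 19.5 bp from the summit, and 151 of the 286 (52.8%) lay within 20 bp. At least 2 E-boxes were found at 32 sites (5.97%). Pairs separated by 6 or 7 bp, the spacing known from tandem clock elements, were counted separately and found at 8 sites. All 8 held an E-box, but the other member of the pair could be a sequence related to the E-box. The 8 sites are therefore not a subset of the 32 by definition.

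**Figure D2:**
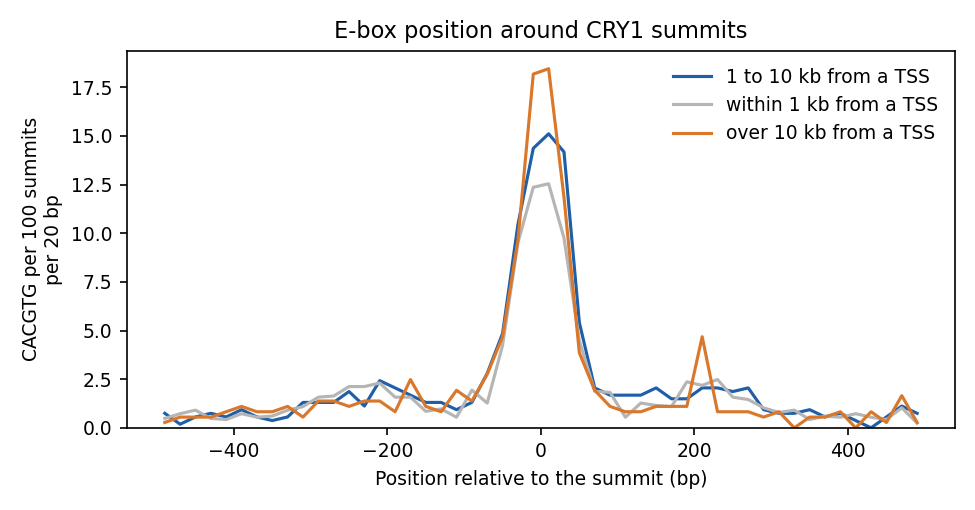
CACGTG occurrences per 100 summits in bins of 20 bp (y axis) by position relative to the summit in bp (x axis), for summits 1 to 10 kb from a TSS (blue), within 1 kb (grey) and over 10 kb away (orange). The blue line peaks at the summit with 15.1 per 100 summits in the bin from 0 to 20 bp, between the grey (12.5) and orange (18.5) lines.

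Other sequences related to the E-box were also more frequent at the summits than in their flanks. CATGTG lay at 93 sites (17.4%) against 7.09% on the left and 5.22% on the right (adjusted p = 1.88e-06 and 2.02e-09 in the same exact McNemar tests). CACGTT lay at 39 sites (7.28%) against 1.87% and 1.31% (adjusted p = 5.69e-05 and 2.51e-06, exact). CACGCG lay at 31 sites (5.78%) against 0.560% and 2.24% (adjusted p = 2.45e-06 and 0.00960, exact). Motifs were read on both strands within 50 bp of the summit, and these sequences can overlap each other.

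Motifs of other factor families gave less even results. GGGCGG, the GC box bound by SP factors, lay at 57 sites (10.6%) and passed the threshold against the left flank (6.34%, adjusted p = 0.0205) but not the right (7.65%, adjusted p = 0.104, exact McNemar test). TGTTTAC, a forkhead site, lay at 16 sites (2.99%) against 0 on the left and 1.12% on the right (adjusted p = 6.10e-05 and 0.0700, exact). TGANTCA, the AP-1 site, lay at 22 sites (4.10%) against 2.80% and 1.87% (adjusted p = 0.370 and 0.0700, exact). The androgen response element, searched as its palindrome with no mismatch, was found at 0 of the 536 sites, which says only that these letters were absent from the windows. As a description, GGGCGG lay at 43 of the 299 downstream sites (14.4%) and 14 of the 237 upstream sites (5.91%), and at 37.6% of the summits within 1 kb of a TSS.

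Compared with promoter-proximal summits, these sites held an E-box more often. The share was 53.4% at 1 to 10 kb against 44.2% within 1 kb (730 of 1650), a difference of 9.12 percentage points (95% interval 4.25 to 13.9; odds ratio 1.44, Fisher's exact p = 2.71e-04, adjusted 0.00271 over the 10 comparisons between kinds of sites). The direction held in every alternative run, but the adjusted p rose above 0.05 with canonical transcripts (difference 5.03, adjusted p = 0.262), with 25 bp on each side of the summit (5.80, adjusted p = 0.0875) and with CpG-rich windows left out (9.54, adjusted p = 0.0781, all Fisher's exact tests). Base composition differed along with it: the windows had a median GC content of 55.4%, against 69.3% within 1 kb, and 18.5% were CpG-rich (150 bp on each side with at least 50% GC and an observed to expected CpG ratio of at least 0.6) against 76.7%. Outside CpG-rich windows, 234 of 437 sites (53.5%) and 169 of 384 promoter-proximal summits (44%) held an E-box.

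Against summits over 10 kb from a TSS, no difference in E-box share was detected. The share there was 55.6% (202 of 363), and the difference was −2.29 percentage points (interval −8.86 to 4.34; Fisher's exact p = 0.539, adjusted 0.990). Strength was compared as the share of summits above 5.18, the median fold enrichment of the list. It was 46.3% at 1 to 10 kb (248), 51.4% within 1 kb (848) and 46.8% over 10 kb (170). Neither difference passed the adjusted threshold (−5.13 percentage points, interval −9.95 to −0.254, adjusted p = 0.104, and −0.56, interval −7.19 to 6.04, adjusted p = 0.991, Fisher's exact tests).

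**Figure D3:**
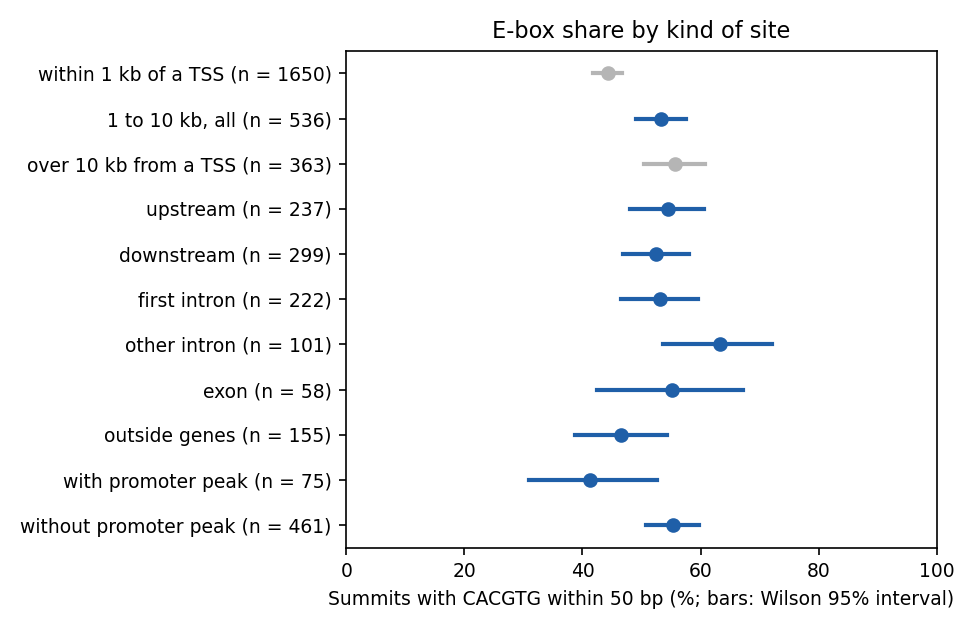
Share of summits with CACGTG within 50 bp (points, x axis in percent) with Wilson 95% intervals (bars), for kinds of sites within 1 to 10 kb of a TSS (blue) and for the rest of the list (grey). Upstream (54.4%) and downstream (52.5%) sites lie side by side, and sites with a promoter peak of the same gene (41.3%) lie lowest.

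Sites stood on both sides of the TSS. Upstream of the nearest TSS lay 237 sites (44.2%, interval 40.1 to 48.4%), where 47.8% of the bases of the band lie, and downstream lay 299. SSPN, ENSG00000226206 and ENSG00000286538 had the upstream sites with the highest −log10 q, and NR1D1, HCG27 and LINC01970 those downstream. An E-box was held by 54.4% of the upstream sites (129) and 52.5% of the downstream sites (157), a difference of 1.92 percentage points (interval −6.55 to 10.3; Fisher's exact p = 0.664, adjusted 0.990). The shares above the median fold enrichment were 47.3% and 45.5%, a difference of 1.77 (interval −6.67 to 10.2; Fisher's exact p = 0.727, adjusted 0.990). Neither measure separated the sides, and the intervals allow differences of up to about 10.3 percentage points.

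A first intron of at least 1 annotated transcript held 222 sites (41.4%, interval 37.3 to 45.6%), close to the 40.1% of bases at this distance that lie in a first intron. Of the others, 58 lay in exons, 155 outside genes and the rest in other introns. Downstream of the TSS, 149 of 299 sites (49.8%) lay in a first intron, where 49.6% of the bases do. First-intron sites and the others did not differ in either measure beyond the counting error. An E-box was held by 53.2% (118) against 53.5% (168 of 314), a difference of −0.35 percentage points (interval −8.87 to 8.15; Fisher's exact p = 1). The shares above the median fold enrichment were 45.5% and 46.8% (147), a difference of −1.32 (interval −9.79 to 7.22; Fisher's exact p = 0.792, adjusted 0.990).

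Among the first-intron sites, those of NR1D1 and DANT1 had the highest −log10 q, followed by ARHGAP26. The E-box shares of the other places ran from 46.5% outside genes (72 of 155, interval 38.8 to 54.3%) through 55.2% in exons (32 of 58) to 63.4% in other introns (64 sites, interval 53.6 to 72.1%). The intervals of the lowest and the highest overlap only between 53.6 and 54.3%. Such overlap does not show that the shares are alike, and these places were not tested against each other. With 1 canonical transcript per gene, the first-intron share fell to 33.0% (177 of 537).

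Of the 536 sites, 75 (14.0%) belonged to a gene that also had a peak at its promoter, that is, another summit within 1 kb of any annotated TSS of that gene. These sites were lower in both measures, but neither difference passed the adjusted threshold. An E-box was held by 41.3% of them (31) against 55.3% of the 461 sites without such a peak (255), a difference of −14.0 percentage points (interval −25.4 to −1.79; odds ratio 0.569, Fisher's exact p = 0.0253, adjusted 0.0844). The shares above the median fold enrichment were 33.3% (25) and 48.4% (223), a difference of −15.0 (interval −25.7 to −2.91; Fisher's exact p = 0.0175, adjusted 0.0844). Median fold enrichments were 4.87 and 5.18. With TSS of protein-coding genes alone, both differences passed, at −15.7 for the E-box and −16.6 for strength (adjusted p = 0.0380 for both, Fisher's exact tests). With canonical transcripts the difference in strength shrank to −4.63 (adjusted p = 0.957), and with 25 bp on each side of the summit that in the E-box shrank to −5.19 (adjusted p = 0.609, Fisher's exact tests).

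The sites with a promoter peak also lay closer to the TSS, at a median of 2411 bp against 4026 bp. Another summit lay within 10 kb of 80.0% of them, against 31.5% of the others. The grouping largely fixes this second contrast, because a promoter peak of the same gene is itself another summit. Within 1 to 3 kb, 42.9% of sites with a promoter peak (18 of 42) and 52.4% of those without (98 of 187) held an E-box, and within 3 to 10 kb the shares were 39.4% (13 of 33) and 57.3% (157 of 274). Among sites above the median fold enrichment they were 56.0% (14 of 25) and 68.2% (152 of 223), and among the others 34.0% (17 of 50) and 43.3% (103 of 238). The direction was the same in each of these groups. CpG-rich windows were about equally frequent with and without a promoter peak (18.7% and 18.4%). Within the strength groups, neither difference passed in Fisher's exact tests chosen after seeing the data. The p was 0.263 above the median (adjusted 0.658) and 0.270 at or below it (adjusted 0.675). The part of distance in the result was not tested beyond these values.

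**Figure D4:**
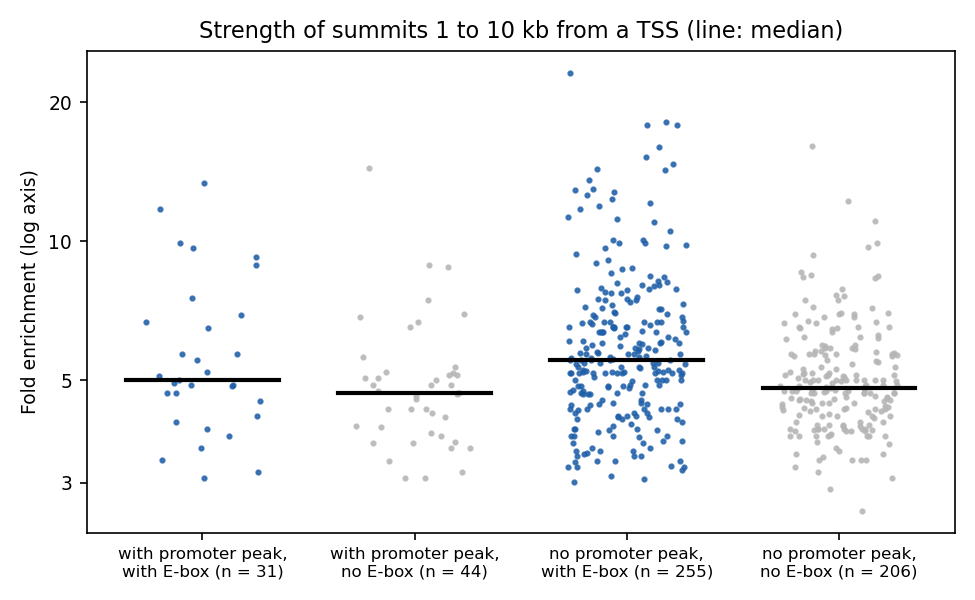
Fold enrichment (y axis, log scale) of each of the 536 sites, split by a promoter peak of the same gene and by the E-box (blue with, grey without); points are summits spread sideways at random and black lines are medians. Most points, strong or weak, lie among the sites without a promoter peak, which are 461 of the 536 (86.0%).

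Stronger sites held an E-box more often, as a description within the list. The share was 66.9% (166 of 248) above the median fold enrichment and 41.7% (120 of 288) at or below it. Sites with an E-box had a median fold enrichment of 5.52, and those without had 4.79. The strongest sites without one were those of BCAM, SPAG9 (14.4, chr17:49195703-49196318), which encodes a scaffold protein of JNK signalling, and DSP (12.2, chr6:7561553-7562161), the desmoplakin gene, the last 2 in a first intron.

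Another summit lay within 10 kb of 205 sites (38.2%), against 40.7% of all summits and 44% of those within 1 kb of a TSS, and the nearest was another site of this kind for 143 of them and a summit within 1 kb of a TSS for 59. Within 1 kb, 124 sites had another summit. The 65 sites with a stronger summit within 1 kb held an E-box in 15.4% of cases (10, interval 8.58 to 26.1%), and the 59 with a neighbour that was not stronger held one in 66.1% (39, interval 53.4 to 76.9%). Sites with no other summit within 1 kb held one in 57.5% of cases (237 of 412). The split by a stronger neighbour itself uses fold enrichment. Sites with a stronger summit within 1 kb had a median of 4.33, and 16.9% lay above the median of the list. Those with a neighbour that was not stronger had 5.85 and 78.0%. The part of strength in the E-box shares was not tested here. The NR1D1 intron is an example: the site of 17.8 held 2 E-boxes, and 2 further summits in the same intron, with fold enrichments of 6.94 (378 bp from its nearest neighbour) and 3.92, held none. VASN likewise had 4 summits from 3.80 to 7.57, of which only the strongest held an E-box; this gene was chosen after its values were seen. Whether such neighbouring summits share the reads of 1 binding site cannot be told from the list.

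For 63 genes a site 1 to 10 kb from a TSS could be set beside the promoter peak of the same gene, taking the strongest of each. More of these genes had several promoter peaks than had several such sites. Taking the strongest favours the side with more peaks, and the tests below do not allow for this. The promoter peak was the stronger in 39 genes and the other site in 24 (61.9%, interval 49.6 to 72.9%; exact sign test p = 0.0769, two-sided). The medians were 5.85 and 4.89, and the median log2 ratio of promoter to site was 0.38 (quartiles −0.30 and 0.88). An E-box lay at both summits in 11 genes, at the site away from the promoter alone in 17, at the promoter alone in 11 and at neither in 24 (exact McNemar p = 0.345). The 2 summits lay a median of 6349 bp apart, and up to 189681 bp where the gene has distant alternative starts.

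The clock genes PER1, PER2, CRY2 and HLF were among these pairs, and each had the stronger peak at the promoter. For PER2 the values were 22.8 at the promoter and 4.15 at the site 1024 bp downstream, with an E-box within 50 bp of neither summit. For PER1 they were 17.8 and 6.84, with the E-box at the promoter alone. CRY2 had 13.0 and 4.89 with an E-box at neither. HLF, a PAR bZIP factor of the clock output, had 13.9 at the promoter and 8.89 in the first intron, and there the intron site alone held the E-box.

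The reverse order was found elsewhere. SPAG9 had 14.4 in its first intron and 4.38 at the promoter, and TFAP4, the gene of a basic helix-loop-helix factor, had 9.22 in its first intron (chr16:4321102-4321837) and 5.52 at the promoter. ENSG00000226206 had 13.4 at the site 1424 bp upstream and 5.35 at the promoter, with the E-box at the upstream site alone. These 3 had the highest −log10 q among the sites with a promoter peak.

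**Figure D5:**
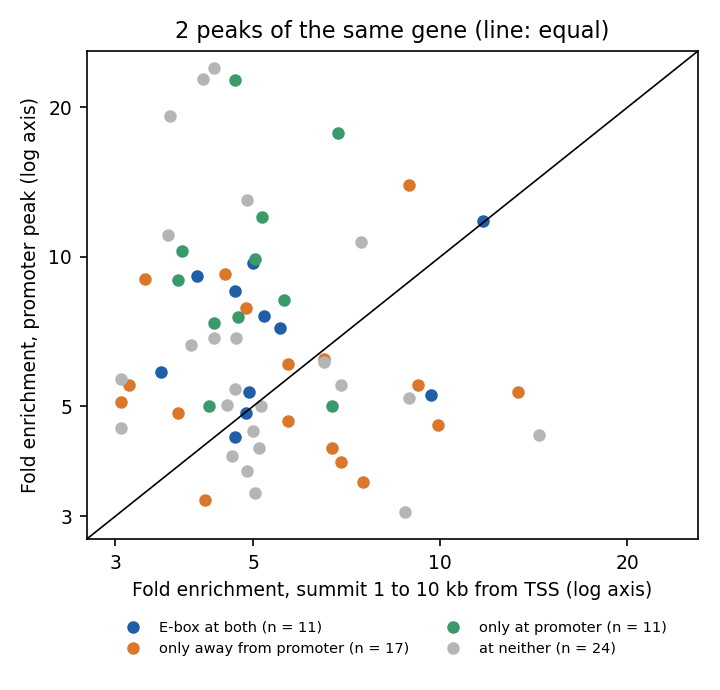
Fold enrichment of the site 1 to 10 kb from a TSS (x axis) and of the promoter peak of the same gene (y axis), both on log scales, for 63 genes coloured by where an E-box lies; the line marks equal values. There are 39 genes above the line, among them PER1, PER2, CRY2 and HLF, and 24 below it.

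The 536 sites had 452 nearest genes. For 339 sites (63.2%) the nearest TSS belonged to a protein-coding gene, for 119 (22.2%) to a long non-coding RNA gene and for 41 (7.65%) to a processed pseudogene. Most genes, 381, had 1 site, 65 had 2 and 6 had 3 or more. With TSS of protein-coding genes alone, 381 of the 536 sites (71.1%) stayed within 1 to 10 kb and 155 (28.9%) moved beyond 10 kb. The nearest gene is a label by distance and not a measured target.

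Across all protein-coding genes, 287 of 20098 (1.43%) were the nearest gene of a site. Against this background, 6 of 25 circadian clock genes (24.0%) had one, among them PER1, PER2, CRY2, NR1D1 and HLF. Of the genes named, NR1D1 and HLF had an E-box at their strongest site. PER1, whose product is a repressor partner of the cryptochromes, had 4 sites, with fold enrichments of 6.84, 5.19, 3.57 and 3.57, and CRY2, the paralogue of CRY1, had 2 with 4.89 and 4.87. None of these sites of PER1 and CRY2 held an E-box within 50 bp of the summit.

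The list of androgen receptor targets had 3 of 29 genes (10.3%). TMPRSS2, an androgen-regulated protease gene often fused to ETS genes in prostate cancer, had the strongest of their sites, in an intron other than the first (chr21:42898427-42899114, fold enrichment 11.7, 4216 bp downstream). Its E-box centre lay 0.5 bp from the summit. KLK3, which encodes prostate-specific antigen, had a weaker site 4942 bp upstream (chr19:51353199-51353281, 4.53), also with an E-box centred 0.5 bp from the summit. FKBP5, the gene of a co-chaperone of steroid receptors, had 2 adjacent sites with 4.24 and 3.92, of which the weaker held an E-box.

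Of the basic helix-loop-helix network, 4 of 39 genes (10.3%) had a site: SREBF1 (6.94, no E-box), MGA (2 sites, 5.60 and 5.11), HES1 (4.88, with an E-box) and MAX (3.56, with an E-box). Nuclear receptors and coregulators had 2 of 45 (4.44%), among them RXRA, the shared dimer partner of many nuclear receptors, with 3 sites from 3.92 to 5.60. Lysosome and autophagy genes had 2 of 35 (5.71%), LAMP1 (6.69 and 5.35) and HEXA (5.04). Lipid and sterol genes had 1 of 28 (3.57%), CPT1A (4.69), and growth factor signalling genes had 1 of 47 (2.13%), IGF1R (7.15 and 5.70). No site had a nearest gene among the 38 DNA repair, 34 cell cycle or 37 glycolysis and hypoxia genes. At 1.43% a list of this size would hold about 1 gene or none, so counts of 0 or 1 are near the background.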

How the data were processed

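CRY1 ChIP-seq was performed by the authors in C4-2 cells (2 immunoprecipitates, 1 input). Per the study's methods, reads were aligned to hg19 with Bowtie2 and peaks were called with MACS2 on combined replicates at q below 0.05. Duplicate handling and region filters were not given in the sources used here, and use of the input as control is presumed. The deposited list holds, per peak, a score, the authors' fold enrichment (a linear ratio), −log10 p (not used) and −log10 q values, and the summit offset. No read counts were used. Peaks pooled from both replicates cannot be told apart by replicate.

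Summits were annotated with GENCODE release 44 mapped to GRCh37, using pysam 0.24.0 and SciPy 1.17.1 in Python 3.11.15. Shares have Wilson 95% intervals. Kinds of sites were compared by Fisher's exact test (two-sided, Benjamini-Hochberg adjustment over 10 tests), and motifs with flanks by exact McNemar tests over 16. These count each summit as independent, although neighbours share chromatin. Background bases were every 20th base. Of the tests, only Fisher's exact test was checked on simulated data. Named genes were the 10 sites with the highest −log10 q, the top 3 of each kind of site, and the genes of 10 lists holding 357 genes (at most 4 genes per list with values, plus clock genes in pairs). Some genes that this rule names are not reported here. The sites, lists and tests were chosen with earlier results of these data known. No expression was measured, so the cell line label was not checked against markers.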

Additional observations from a re-analysis of the deposited data

How the results depend on the processing

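Of 111 repeats of tested results under alternatives, 87 kept direction and side of the threshold, and of 20 repeats of counts and shares without a test, 17 stayed close to their value. Alternatives chosen after seeing the data were 1 site per gene, sites split at the median fold enrichment, CpG-rich windows left out, summits with another within 1 kb left out, and protein-coding nearest genes. All differences below are in percentage points, and the cause of a change was not tested. The excess of the E-box over summits within 1 kb of a TSS lost its adjusted p under 0.05 with canonical transcripts (5.03), 25 bp on each side (5.80) and CpG-rich windows left out (9.54). With a promoter peak of the same gene, the lower E-box share passed it with protein-coding TSS (−15.7), and the lower share of strong sites with protein-coding TSS (−16.6), strength by −log10 q (−17.7), summits with another within 1 kb left out (−23.3) and protein-coding nearest genes (−17.7). Other alternatives moved these 2 differences by over 1.5 times without a change of call: the E-box to −5.19 with 25 bp on each side, −9.28 among sites at or below the median fold enrichment and −26.6 with 1 peak per 10 kb cluster, and strength to −4.63 with canonical transcripts and −8.84 for a promoter peak of any gene within 10 kb. Against summits within 1 kb, the lower strength shrank to −2.42 with canonical transcripts and −2.56 by −log10 q. Leaving out close summits also made the lower strength than within 1 kb pass (−9.70). The exact sign test of promoter against other peaks passed with protein-coding TSS (64.5% stronger at the promoter, p = 0.0154) and promoter peaks within 500 bp (64.7%, p = 0.0489).

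Differences near 0 turned sign, and none of these passed a threshold. For the E-box in first introns they were 0.0786 at q below 0.01, 2.15 with 1 peak per 10 kb cluster, 0.316 without chromosome X, 4.43 among peaks with fold enrichments from 5 up, and 1.02 downstream only. For strength in first introns they were 0.518 at q below 0.01, 1.64 downstream only and 0.0881 for the first intron of the nearest gene. For strength upstream they were −0.744 with protein-coding TSS and −1.05 without close summits. For strength against summits over 10 kb away they were 0.173 with protein-coding TSS, 0.954 with canonical transcripts and 4.07 with 1 peak per cluster.

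The first-intron share moved to 33.0% with canonical transcripts. The share of sites with a promoter peak moved to 22% with protein-coding TSS and to 4.84% with 1 peak per 10 kb cluster, which by construction removes close pairs. No analysis paired by replicate was possible because the peaks come from 1 pooled list, and leaving out a replicate was not possible for the same reason. Depth is unknown from the list, so weak sites near the calling threshold could not be given an error.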
